A study of Homo sapiens with 6 samples.

Results

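The genes described here are 10 transcripts that the RAS-ERK pathway induces and that mostly feed back on it: the MAP kinase phosphatase genes DUSP4, DUSP5 and DUSP6, the Sprouty genes SPRY1, SPRY2 and SPRY4, the SPRED genes SPRED1 and SPRED2, and the ETS transcription factor genes ETV4 and ETV5. They were chosen by name, all 10 were found among the 57820 genes of the count files by Ensembl identifier, and 7 of the 10 had enough counts to be tested among 16006 genes. RNA was sequenced from C4-2B-ENZR, a line of human prostate cancer cells that resist the antiandrogen drug enzalutamide, in 3 libraries transfected with an siRNA against RUVBL1 and 3 transfected with a negative-control siRNA. Both groups are the same line in the same medium, and both were transfected. The number of siRNA sequences, the time after transfection and the presence of enzalutamide in the medium are not stated in the labels. Whether the 3 replicates of a group were separate cultures is not stated either, so a p-value here reflects only the variation among the libraries and may be technical.

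In the RAS-ERK pathway, activated receptors load RAS with GTP, RAS recruits RAF to the membrane, and RAF activates MEK and then ERK. ERK in turn raises the transcription of its own brakes. DUSP6 is a cytoplasmic phosphatase that dephosphorylates ERK, and DUSP4 and DUSP5 are nuclear phosphatases, of which DUSP5 is selective for ERK and DUSP4 also acts on JNK and p38. Sprouty proteins restrain signalling between receptor tyrosine kinases and RAF, and SPRED proteins bring the RAS GTPase-activating protein neurofibromin to the membrane. ETV4 and ETV5 are PEA3-family ETS factors whose transcripts follow growth factor and ERK activity. The comparison asks whether these transcripts differed after RUVBL1 siRNA, in a study whose title links RUVBL1 to MAPK signalling.

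The libraries held between 18985542 and 25697804 estimated counts after RUVBL1 siRNA and between 24720504 and 36054489 with control siRNA. RUVBL1 itself, an AAA+ ATPase and the target of the siRNA, had 2725, 2618 and 2710 normalized counts in the RUVBL1 siRNA libraries, against 4681, 4654 and 4758 in the control libraries, so the knockdown was partial at the RNA level (57.1% ± 1.23 of the control mean, SD, n = 3; log2 fold change -0.81, edgeR adjusted p = 3.74e-10). Normalized counts are estimated counts scaled to a common library size with edgeR's TMM factors. The replicate 1 library of each group stood apart: of 14111 genes whose counts reached 20 in all 4 libraries of replicates 2 and 3, 541 were at 0 in both, and 0 of the 10 feedback genes were among these 541. All 7 luminal prostate markers looked up were detected, with a summed level of 88099 to 90269 normalized counts after RUVBL1 siRNA and 98927 to 100731 with control siRNA. The basal markers KRT5 and KRT14, the stromal marker DCN and the T cell marker CD3E were at 0 in all 6 libraries.

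For 6 of the 10 genes, RefSeq promoter windows of 300 bases were at hand (build GRCh38.p14, 250 bases before to 50 after an annotated start), 10 windows in all, and these were searched on both strands for 4 motifs tied to growth-factor transcription. The motifs were the ETS core CCGGAA, the AP-1 site TGANTCA, the full cyclic AMP response element TGACGTCA and the E-box CACGTG. The windows shown are those of the SPRED genes, both of which were higher after RUVBL1 siRNA, and the Sprouty windows that hold an ETS core. Each is written 5′ to 3′ on the strand of its gene, in lower case with motif matches in capitals.

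SPRED2, first window, chr2:65432550-65432849, minus strand: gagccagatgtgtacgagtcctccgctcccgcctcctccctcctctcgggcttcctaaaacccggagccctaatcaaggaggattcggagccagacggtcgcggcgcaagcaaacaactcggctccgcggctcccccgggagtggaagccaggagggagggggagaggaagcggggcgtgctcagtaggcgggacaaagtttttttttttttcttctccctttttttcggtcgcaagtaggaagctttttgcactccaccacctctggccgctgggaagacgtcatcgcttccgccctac
SPRED2, second window, chr2:65366729-65367028, minus strand: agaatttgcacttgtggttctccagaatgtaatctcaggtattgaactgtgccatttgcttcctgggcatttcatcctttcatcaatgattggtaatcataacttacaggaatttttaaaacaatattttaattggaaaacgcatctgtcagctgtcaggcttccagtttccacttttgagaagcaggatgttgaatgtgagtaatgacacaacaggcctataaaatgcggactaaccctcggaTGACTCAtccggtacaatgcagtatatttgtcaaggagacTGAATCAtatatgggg
SPRED1, chr15:38252586-38252885, plus strand: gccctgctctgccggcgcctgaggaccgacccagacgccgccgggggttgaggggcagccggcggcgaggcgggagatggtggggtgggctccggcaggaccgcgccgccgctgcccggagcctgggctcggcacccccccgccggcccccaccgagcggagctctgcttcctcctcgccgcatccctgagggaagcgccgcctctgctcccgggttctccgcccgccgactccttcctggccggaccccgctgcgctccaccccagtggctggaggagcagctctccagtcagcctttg
SPRY1, chr4:123398136-123398435, plus strand: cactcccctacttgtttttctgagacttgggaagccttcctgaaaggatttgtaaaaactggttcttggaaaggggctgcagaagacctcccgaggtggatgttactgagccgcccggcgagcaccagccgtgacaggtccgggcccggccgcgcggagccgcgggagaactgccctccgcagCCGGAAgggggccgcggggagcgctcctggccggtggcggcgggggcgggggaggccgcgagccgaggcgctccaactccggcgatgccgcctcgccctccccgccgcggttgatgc
SPRY2, chr13:80341077-80341376, minus strand: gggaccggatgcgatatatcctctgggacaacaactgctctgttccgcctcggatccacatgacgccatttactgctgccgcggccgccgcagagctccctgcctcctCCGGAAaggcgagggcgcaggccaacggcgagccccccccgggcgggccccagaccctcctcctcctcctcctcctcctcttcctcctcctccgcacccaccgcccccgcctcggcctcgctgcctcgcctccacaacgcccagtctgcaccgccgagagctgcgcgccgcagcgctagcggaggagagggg

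The SPRED1 window had no match to any of the 4 motifs and a GC content of 76.3%, against a median of 58.7% over all 35116 windows of the table. The first SPRED2 window had no match either, while the second, at an internal start and with a GC content of 39.3%, held 2 AP-1 matches, 1 starting 6 bases before the start site and 1 at base 35 after it. An AP-1 match was present in 7.71% of all windows. The ETS core was found in 1 of the 2 SPRY1 windows and 1 of the 3 SPRY2 windows, or 2 of the 10 windows of these genes, against 17.2% of all windows. The single windows of DUSP6 and SPRY4 had no match, and neither the full cyclic AMP response element (1.85% of all windows) nor the E-box (7.26%) occurred in any window of these genes. The SPRED1 window and the first SPRED2 window thus shared none of these 4 motifs, and a match or its lack in these 300 bases says nothing of binding.

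Both SPRED genes were higher after RUVBL1 siRNA, the phosphatase gene DUSP5 was lower, DUSP4, DUSP6, SPRY1 and SPRY2 did not pass the threshold, and SPRY4, ETV4 and ETV5 had too few counts or none, and could not be judged. Of the 7 genes tested, 2 were called higher and 1 lower at an edgeR adjusted p of 0.05. Over all 16006 genes, 42.2% were called, 19.1% higher and 23.1% lower, so 3 of 7 is near the background. The 7 genes lie in the lower part of the expression range, with mean levels from 23.4 to 338 normalized counts, and among the 5002 tested genes within that range 24.2% were called, 16.3% higher and 7.96% lower. The median log2 fold change of the 7 was 0.30, against 0.01 over all genes tested. The groups did not overlap for 5 of the 7, where 52.6% of all tested genes showed no overlap. The counts over the 7 genes are therefore not a result about them as a set, and the genes are described one by one.

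**Figure D1:**
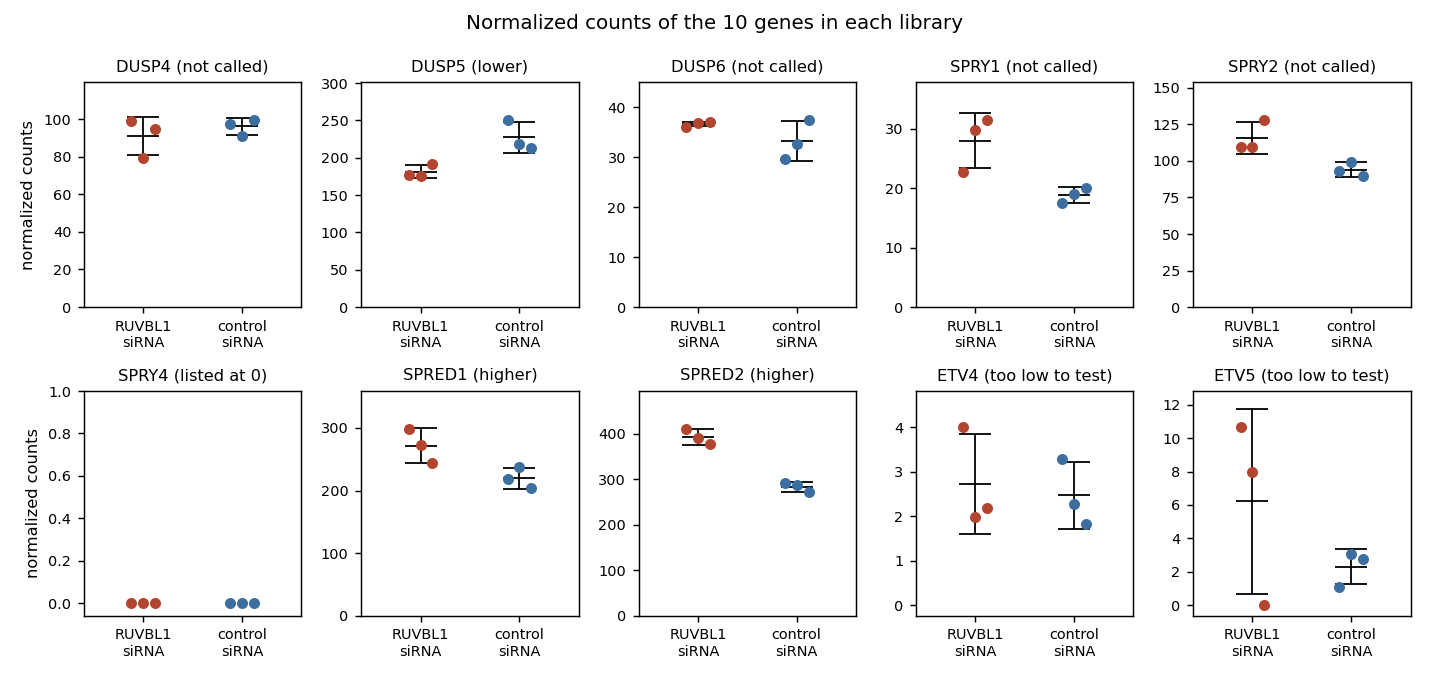
Normalized counts (vertical axis, a scale of its own for each gene) of the 10 genes in the 3 RUVBL1 siRNA libraries (red, left) and the 3 control siRNA libraries (blue, right), with the mean and SD in black and the edgeR call beside the gene name. SPRED1 and SPRED2 sit higher and DUSP5 lower after RUVBL1 siRNA with no overlap, while ETV4 and ETV5 stay at a few counts and SPRY4 is listed at 0 throughout.

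SPRED2 showed the clearest change. Its normalized counts were 411, 390 and 378 in the RUVBL1 siRNA libraries and 293, 286 and 271 in the control libraries. Every RUVBL1 siRNA library lay above every control library, and the gap between the groups was wider than the range within either. The fold change was 1.39 (log2 fold change 0.47, SE 0.0731, edgeR adjusted p = 0.000211), with a 95% interval of 1.24 to 1.55-fold. This call held under every alternative tried, with log2 values from 0.43 to 0.57. Between libraries of the same replicate number the log2 ratio was 0.49, 0.44 and 0.48 for replicates 1, 2 and 3, the narrowest spread of any of the 7 tested genes.

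SPRED1, which encodes the closest relative of SPRED2 and is the gene mutated in Legius syndrome, had 299, 273 and 243 normalized counts after RUVBL1 siRNA and 218, 237 and 204 with control siRNA. The lowest RUVBL1 siRNA library exceeded the highest control library by only a few counts. The fold change was 1.24 (95% interval 1.06 to 1.45; log2 fold change 0.31, SE 0.102, edgeR adjusted p = 0.0292). The call was lost in replicates 2 and 3 alone (log2 0.23, adjusted p = 0.0893) and with limma-voom (adjusted p = 0.0531), and also without RUVBL1 siRNA replicate 1 (adjusted p = 0.111), RUVBL1 siRNA replicate 2 (0.0803), control replicate 1 (0.0699) or control replicate 3 (0.122). SPRED3, a relative that is not among the 10 genes, had between 4 and 9 estimated counts in a library and was not tested. The partner that SPRED proteins recruit, neurofibromin, is encoded by NF1, which averaged 1831 normalized counts after RUVBL1 siRNA and 1953 with control siRNA (log2 fold change -0.09, edgeR adjusted p = 0.0658). With the replicate block NF1 passed as lower (adjusted p = 0.0210), as it did without a low-count filter (0.00452) and without RUVBL1 siRNA replicate 2 (0.0304), while under scaling by library totals its log2 value was 0.0066 and it did not pass.

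Among the phosphatases, DUSP5 had 176, 176 and 191 normalized counts in the RUVBL1 siRNA libraries, against 251, 219 and 213 in the control libraries. All 3 RUVBL1 siRNA libraries were below all 3 control libraries, and the widest spread was among the controls, where replicate 1 was high. DUSP5 fell to 79.6% ± 3.85 of the control mean (SD, n = 3; log2 fold change -0.33, SE 0.102, edgeR adjusted p = 0.0212), with a 95% interval of 0.68 to 0.93-fold. This call missed the threshold with DESeq2 (adjusted p = 0.0617), under scaling by library totals (log2 -0.23, adjusted p = 0.0920) and in replicates 2 and 3 alone (log2 -0.24, adjusted p = 0.0914), and without RUVBL1 siRNA replicate 1 (adjusted p = 0.0515), RUVBL1 siRNA replicate 2 (0.0687) or control replicate 1 (0.0854).

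DUSP4 had 98.8, 79.5 and 94.5 normalized counts after RUVBL1 siRNA and 97.5, 91.1 and 99.6 with control siRNA. The groups overlapped, and the 95% interval of the change ran from 0.76 to 1.17-fold (log2 fold change -0.08, edgeR adjusted p = 0.725). Its sign was not stable, at 0.020 on the log2 scale under scaling by library totals, and at 0.0079 without RUVBL1 siRNA replicate 2. DUSP6, the phosphatase often used as a readout of ERK activity, had 36.1, 36.8 and 36.9 normalized counts after RUVBL1 siRNA and 29.6, 32.6 and 37.5 with control siRNA, from 27 to 43 estimated counts in a library. The groups overlapped here too, and the interval was wide, from 0.77 to 1.57-fold (log2 fold change 0.14, SE 0.233, edgeR adjusted p = 0.705). With the same SE, an estimated change of 1.54-fold would have been needed for DUSP6 to pass the threshold. A true change near or below that size could therefore have been missed.

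The Sprouty transcripts differed in level, with means over all libraries of 105 normalized counts for SPRY2, 23.4 for SPRY1 and 0 for SPRY4. SPRY2 had 109, 109 and 128 normalized counts in the RUVBL1 siRNA libraries and 93.1, 99.5 and 89.5 in the control libraries. The groups were separate, but the difference of 1.23-fold (log2 fold change 0.30, SE 0.133, 95% interval on the log2 scale 0.01 to 0.59) did not pass after adjustment (edgeR adjusted p = 0.0942). It did pass under scaling by library totals (log2 0.40, adjusted p = 0.0279). SPRY1 had 22.7, 29.8 and 31.5 normalized counts after RUVBL1 siRNA and 17.5, 19.0 and 20.1 with control siRNA, again separate groups, from 16 to 30 estimated counts in a library. Its log2 fold change of 0.57 was larger than that of SPRED2 but its SE was 0.294, where counting noise alone gives 0.246, and it was not called (edgeR adjusted p = 0.147, 95% interval 0.95 to 2.31-fold). An estimated change of 1.72-fold would have been needed for SPRY1 to pass with the same SE.

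SPRY4 was listed at 0 in all 6 libraries, which hold 158996023 estimated counts together. A count of 0 allows up to 3 counts in a library, or 2.28 to 4.01 normalized counts, a limit that covers counting error only. How the counting treated the locus is not stated, so this exact 0 does not tell a lack of the transcript from reads that were not assigned to the gene, and the limit holds only if they were assigned. ETV4 had 3, 2 and 2 estimated counts after RUVBL1 siRNA and 3, 3 and 2 with control siRNA, and its exons overlap those of DHX8 on the opposite strand. ETV5 had 8, 8 and 0 estimated counts after RUVBL1 siRNA and 1, 4 and 3 with control siRNA, with the lowest and the highest values both in the RUVBL1 siRNA group. Its exons overlap those of DGKG on the same strand, which was at 0 in all libraries, and the exons of DUSP6 overlap those of the antisense gene AC024909.2. How reads shared by overlapping genes were assigned is not stated, so the counts of ETV4, ETV5 and DUSP6 are uncertain in this respect. SPRY4, ETV4 and ETV5 did not pass the low-count filter, no fold change is given for them, and no difference between the groups can be judged from these counts. ETV1, the remaining PEA3-family gene, was in the same range, at 0 in all RUVBL1 siRNA libraries and at 2, 0 and 1 estimated counts in the control libraries.

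**Figure D2:**
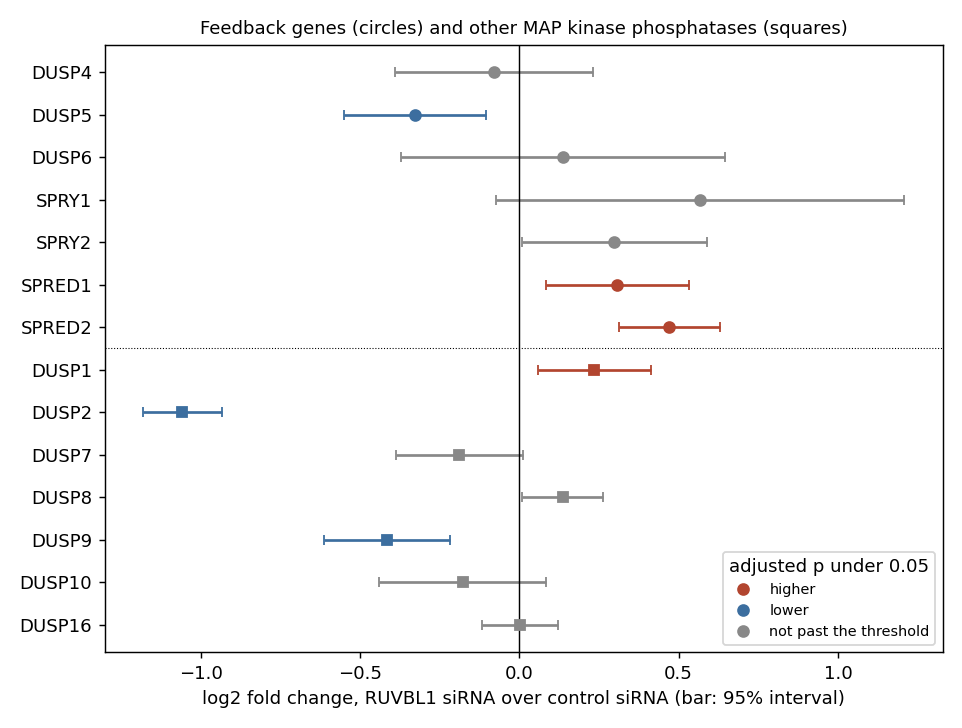
Log2 fold change of RUVBL1 siRNA over control siRNA (horizontal axis) with 95% intervals for the 7 tested feedback genes (circles) and the 7 other MAP kinase phosphatase genes (squares), coloured by the edgeR call. The intervals of DUSP6 and SPRY1 are the widest, SPRED2 is the feedback gene whose interval lies farthest above 0, and DUSP2 at -1.06 lies farthest below 0.

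Scaling by library totals in place of TMM moved the log2 fold changes of the tested genes by 0.0993 in the median. For this reason the ratio of one feedback transcript to another within a library was also taken, in which the scaling cancels. These pairs were chosen after their values were seen and are given without a test. The estimated counts of SPRED2 were 2.33, 2.21 and 1.98 times those of DUSP5 in the RUVBL1 siRNA libraries, against 1.17, 1.31 and 1.27 times in the control libraries. The SPRED1 to DUSP5 ratio was 1.70, 1.55 and 1.27 after RUVBL1 siRNA and 0.869, 1.08 and 0.957 with control siRNA. The SPRY2 to DUSP5 ratio was 0.621, 0.621 and 0.670 after RUVBL1 siRNA and 0.371, 0.455 and 0.421 with control siRNA. In each of the 3 ratios the RUVBL1 siRNA libraries lay above the control libraries. The choice of pairs fixes this direction, since genes already seen higher were set over one already seen lower, and the ratios add only sizes that do not depend on the scaling.

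Per length of the longest annotated transcript and scaled to an equal sum over all genes in each library, SPRED2 and DUSP5 were the most abundant of the 10. The length-scaled level of SPRED2 was 7.10 ± 0.359 after RUVBL1 siRNA and 4.71 ± 0.232 with control siRNA, and that of DUSP5 was 5.24 ± 0.230 after RUVBL1 siRNA and 6.07 ± 0.625 with control siRNA (SD, n = 3 each). The leading gene was thus SPRED2 after RUVBL1 siRNA and DUSP5 in the control libraries. The length-scaled level of SPRY2 (3.16 ± 0.282 after RUVBL1 siRNA, 2.37 ± 0.129 with control siRNA) came next, then that of SPRED1 (2.59 ± 0.284 after RUVBL1 siRNA, 1.92 ± 0.148 with control siRNA). DUSP4 was at 1.22 ± 0.141 after RUVBL1 siRNA and 1.18 ± 0.0579 with control siRNA on that scale. In TMM-normalized counts DUSP4 was instead at 94.7% of the control mean. The equal sum thus sets the RUVBL1 siRNA group higher against the control group than TMM does. These levels rank genes within a group and are not a comparison between the groups. SPRY1 followed at 0.794 ± 0.127 after RUVBL1 siRNA and 0.493 ± 0.0280 with control siRNA, and DUSP6 at 0.615 ± 0.00324 after RUVBL1 siRNA and 0.514 ± 0.0560 with control siRNA. SPRY1 and DUSP6 differed by less than their spread in the control libraries. ETV4 and ETV5 were at or below 0.112 in both groups. Even SPRED2, the feedback gene with the most counts, was at the 42.8th percentile of the normalized counts of all tested genes, and SPRY1 at the 11.5th.

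**Figure D3:**
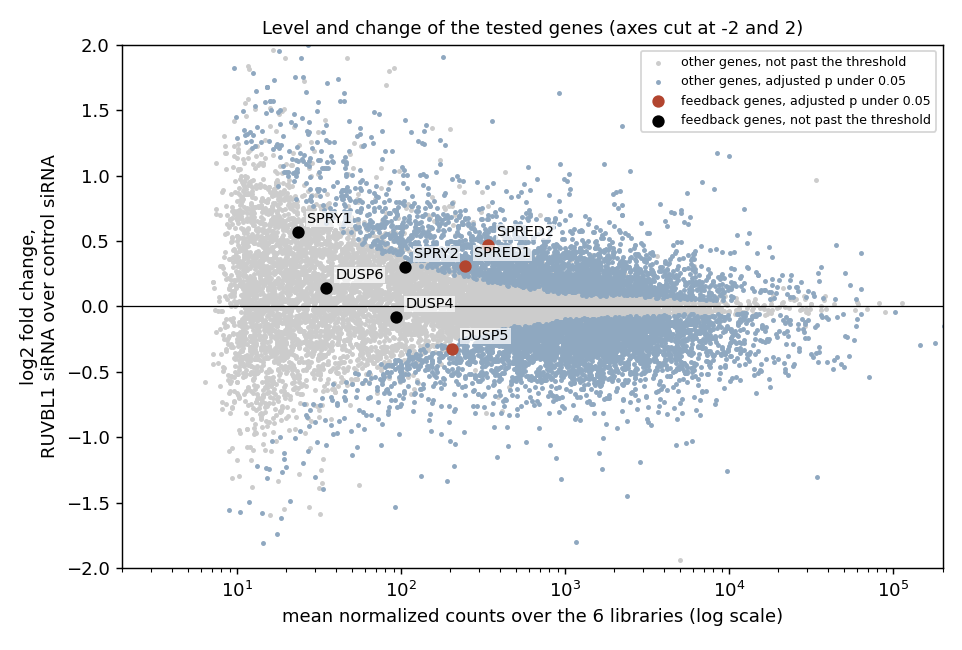
Mean normalized counts (horizontal axis, log scale) against the log2 fold change of RUVBL1 siRNA over control siRNA (vertical axis, cut at -2 and 2) for the tested genes, with the 7 tested feedback genes marked. They lie between 23.4 and 338 normalized counts, where genes need a larger change to be called than at higher levels.

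Libraries of the same replicate number were compared pair by pair. The log2 ratio of DUSP5 was -0.51, -0.31 and -0.15 in replicates 1, 2 and 3, below 0 in each but with a spread as large as its mean change. That of SPRED1 was 0.45, 0.21 and 0.26, that of SPRY2 0.23, 0.13 and 0.51, and that of SPRY1 0.36, 0.62 and 0.62. DUSP4 (0.02, -0.19 and -0.07) and DUSP6 (0.28, 0.17 and -0.02) changed sign between pairs. With replicate number added to the model as a block, the calls among the 10 genes were the same 3. The edgeR adjusted p was then 5.42e-06 for SPRED2, 0.00726 for SPRED1 and 0.00892 for DUSP5. The labels do not state that libraries of the same number are paired. An exact permutation test, two-sided, gave p = 0.1 for SPRED1, SPRED2, DUSP5, SPRY1 and SPRY2, the smallest p that 3 against 3 libraries allow, and p = 0.6 and 0.4 for DUSP4 and DUSP6.

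**Figure D4:**
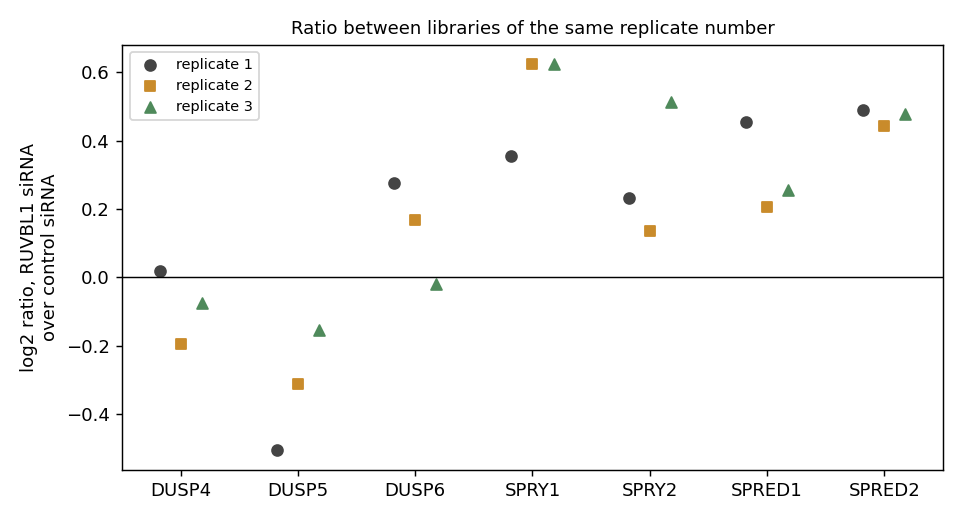
Log2 ratio of normalized counts (with 1 added) of RUVBL1 siRNA over control siRNA between libraries of the same replicate number, for the 7 tested feedback genes. The ratios of SPRED2 fall between 0.44 and 0.49, while those of DUSP4 and DUSP6 lie on both sides of 0.

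Other genes of the pathway were read from lists of 50 genes in all, of which 42 were tested, 8 were higher and 8 lower. Over all genes 19.1% were higher and 23.1% lower, so these counts are near the background, and the lists that follow are described gene by gene. Among 7 other MAP kinase phosphatase genes, 1 was higher and 2 were lower, with a median log2 fold change of -0.18. DUSP2, a nuclear phosphatase that acts on ERK and p38, fell to 557, 534 and 486 normalized counts in the RUVBL1 siRNA libraries, against 1142, 1069 and 1069 in the control libraries (log2 fold change -1.06, SE 0.0567, edgeR adjusted p = 2.44e-08). This change was larger than that of any of the 7 tested feedback genes, and DUSP2 had more counts than any of the 10. DUSP9, a cytoplasmic phosphatase of the same subfamily as DUSP6, fell by 0.41 on the log2 scale (318 ± 25.6 after RUVBL1 siRNA and 424 ± 45.2 normalized counts with control siRNA, SD, n = 3 each; edgeR adjusted p = 0.00260). DUSP1, an immediate early nuclear phosphatase, rose by a log2 of 0.24 (edgeR adjusted p = 0.0344), a call that was lost with limma-voom (adjusted p = 0.0519), without a low-count filter (0.0738) and in replicates 2 and 3 alone (0.0951), and without RUVBL1 siRNA replicate 1 (0.0590), RUVBL1 siRNA replicate 2 (0.133), control replicate 1 (0.135) or control replicate 3 (0.0538).

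Among 6 other ETS factors under ERK control, 5 were tested, 2 were higher and 0 were lower, with a median log2 fold change of 0.17. ELK4, a partner of serum response factor, rose by a log2 of 0.35 (1541 normalized counts after RUVBL1 siRNA, 1211 with control siRNA, edgeR adjusted p = 1.05e-05). ERF, a repressor that ERK exports from the nucleus, rose by 0.17 (adjusted p = 0.0202), and this call was lost in replicates 2 and 3 alone (adjusted p = 0.0750), without a low-count filter (0.0652), and without RUVBL1 siRNA replicate 1 (0.0625) or control replicate 2 (0.0775). ETS1 was not tested, with 1 to 4 estimated counts in a library.

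Of 12 genes listed as immediate early, 8 were tested, 0 were higher and 3 lower, with a median log2 fold change of -0.03. JUN, JUNB and MYC, all transcription factor genes, had log2 fold changes of -0.15, -0.15 and -0.14 (edgeR adjusted p = 0.00275, 0.00768 and 0.0166), but under scaling by library totals these were -0.05, -0.05 and -0.04 and none passed. With such scaling the list had 2 higher and 0 lower, where 4981 of all 16006 genes were higher and 2297 lower. The call of MYC was also lost without RUVBL1 siRNA replicate 2 (adjusted p = 0.0823) or replicate 3 (0.0827). EGR1, which is a sensitive early target of ERK, was not tested, at 8, 13 and 4 estimated counts after RUVBL1 siRNA and 5, 10 and 8 with control siRNA, and FOSL1, EGR2 and EGR3 were also too low to test. Of 4 other ERK output genes 3 were tested and 2 were lower. These were CCND1, which encodes cyclin D1 (log2 fold change -0.20, adjusted p = 2.71e-06), and EPHA2, an ephrin receptor gene (-0.41, adjusted p = 0.00725), while EPHA4 was not tested, with counts in 1 library only.

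Among 9 other brakes on RAS and ERK, 3 were higher and 0 lower, with a median log2 fold change of 0.07, and with the replicate block 3 were higher and 1, NF1, was lower. PEBP1, which encodes the RAF kinase inhibitor protein, rose by a log2 of 0.23 (edgeR adjusted p = 5.01e-07) and LZTR1, an adaptor for the degradation of RAS proteins, by 0.15 (adjusted p = 0.00601). ERRFI1, an inhibitor of the EGF receptor, rose by 0.14 (adjusted p = 0.0370), and its call was lost with limma-voom (adjusted p = 0.0582), in replicates 2 and 3 alone (0.194), and without RUVBL1 siRNA replicate 1 (0.146), control replicate 1 (0.102) or control replicate 2 (0.110). Of 9 RAF, MEK and ERK kinases and scaffolds, 2 were higher and 1 lower, and with the replicate block 4 were higher and 1 lower. MAPK3, which encodes ERK1, rose by 0.25 (adjusted p = 9.67e-05) and the scaffold gene SHOC2 by 0.19 (adjusted p = 0.00273), whereas ARAF fell by 0.28 on the log2 scale (adjusted p = 0.000755). Under scaling by library totals, 5 of the brakes were higher and 0 lower, and 6 of the kinases and scaffolds were higher and 1 lower. Over all 16006 genes, 4981 were higher and 2297 lower with that scaling, and 3743 higher and 4094 lower with the replicate block. So few listed genes give no result as a set. All these values are levels of RNA, and neither the activity of ERK nor its phosphorylation was measured here.

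Of the 7 luminal prostate markers, 1 was higher and 4 were lower after RUVBL1 siRNA. Over all genes tested 19.1% were called higher and 23.1% lower, and so few markers give no result as a set. Whether these calls go with those of SPRED1, SPRED2 and DUSP5 was not tested. FOXA1, a pioneer transcription factor, rose by a log2 of 0.26, and the keratin genes KRT8 and KRT18 and the E-cadherin gene CDH1 fell by 0.49, 0.14 and 0.19 on the log2 scale. Under scaling by library totals 3 of the 7 were higher and 3 lower, where 4981 of all 16006 genes were higher and 2297 lower. The stromal marker ACTA2 (log2 fold change -1.33, edgeR adjusted p = 1.45e-06) and the macrophage marker CD68 (-0.96, adjusted p = 8.71e-06) were also lower. ACTA2 was the only stromal marker called, as COL1A1 (log2 fold change 0.0068) and PDGFRB (-0.07) did not pass and DCN was at 0. The summed level of the 4 stromal markers was 413 to 438 normalized counts after RUVBL1 siRNA and 545 to 631 with control siRNA, and that of the 4 immune markers 166 to 199 after RUVBL1 siRNA and 311 to 346 with control siRNA. Of the 4 immune markers only CD68 had enough counts to be tested, and CD3E was at 0. The basal markers summed to at most 1.34 normalized counts, and 2 endothelial markers to 40.7 to 44.5 after RUVBL1 siRNA and 32.9 to 39.4 with control siRNA. All libraries come from the same cultured line, so these marker names do not mean that stromal, immune or endothelial cells were present. In bulk RNA, fewer cells expressing a gene and less RNA per cell cannot be told apart. The part of these markers in the results was not tested.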

How the data were processed

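RNA-seq of C4-2B-ENZR cells gave 6 libraries, grouped by the sample titles. The deposited values are estimated counts per Ensembl gene, not scaled to library size, as the authors deposited them. Bowtie 0.12.2 and mouse builds mm8 and mm9 are listed, per the submitters' processing notes, although the gene identifiers are human. For the counter, human build, annotation, strand setting and filters, nothing is given in the sources used here.

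Symbols were matched by stable identifier (51996 of 57820 genes). Estimated counts were rounded to whole numbers. The test was edgeR's two-sided robust quasi-likelihood test (edgeR 4.0.16, R 4.3.3) with TMM factors, filterByExpr and group alone in the model. P-values were adjusted by Benjamini-Hochberg over 16006 genes, with a threshold of 0.05. The SE is the log2 fold change divided by the square root of F, and 95% intervals use its t distribution. Normalized counts refer to the mean effective library size of 26348516. log2 CPM for permutation tests used a prior count of 2. A gene was too low to judge if the filter dropped it or its mean was under 20 normalized counts. All 10 feedback genes are named, and from each context list up to 3 called genes with the smallest p and those the filter dropped. Transcript lengths and overlaps came from GENCODE 29, promoters from RefSeq (GRCh38.p14).

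Deviations from the group means correlated at 0.939, 0.819 and 0.823 between libraries of the same replicate number. The libraries were treated as paired by number in the blocked alternative, a pairing that the labels do not state. Replicates 2 and 3 correlated across numbers about as well (0.817 and 0.807). Replicate 1 correlated at -0.882 to -0.872 with replicates 2 and 3 of the other group. The values thus set replicate 1 apart and do not decide how replicates 2 and 3 pair. Alternatives were DESeq2 1.42.0, limma-voom (limma 3.58.1), DESeq2 size factors, library size alone, no filter, at least 50 counts in 3 libraries, the replicate block, replicates 2 and 3 alone and each library left out. The 10 genes and the lists were chosen with earlier results of these data known. PECAM1, a listed endothelial marker, was not matched by identifier. No coordinates of the count files are printed, and the values of some listed genes are not reported here.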

Additional observations from a re-analysis of the deposited data

How the results depend on the processing

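RUVBL1 was lower and SPRED2 was higher past the threshold under every alternative. Of the 10 feedback genes, 3 were called (6755 of all 16006 genes tested). With limma-voom 2 were called, of which 1 was higher (6552 of all 16006 called). With DESeq2 2 were called, with 0 lower (6106 of all 16006 called). Under scaling by library totals 3 were called, all higher, with 0 lower (4981 of all 16006 higher and 2297 lower). In replicates 2 and 3 alone 1 was called, which was higher, with 0 lower (7405 of all 16416 called). With each library left out, 1 to 3 were called, 1 to 2 of them higher and 0 to 1 lower. Over all genes, 5741 to 6357 were called in those fits, of 16219 to 16398 tested. The log2 fold change of DUSP4, which was not called, was 0.020 under scaling by library totals and ran from -0.14 to 0.0079 with each library left out.

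On the 7 signalling lists, scaling by library totals gave 17 higher and 5 lower genes, against 8 and 8, and with each library left out 5 to 8 were higher and 7 to 8 lower. Over all genes, 4981 were higher and 2297 lower with that scaling, against 3060 and 3695, since it moves the median log2 fold change by 0.0993. With the replicate block 7837 genes were called, against 6755. The block changed no call among the 10 genes, and among the other brakes on RAS and ERK it added NF1 as lower. Among the tested feedback genes, DUSP6 and SPRY1 had the fewest counts and the largest SE (0.233 and 0.294). ETV4 and ETV5 had too few counts to decide. For SPRY4, at 0 throughout, depth and the counting of the locus cannot be told apart. The SE exceeded counting noise for all 7 tested feedback genes. The cause of the lost calls was not tested.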
